A study of Mus musculus with 2 samples.

Results

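Interferon-stimulated genes are the genes that a cell switches on after it has sensed a type I or type II interferon. Here 9 of them, Ifit2, Ifit3, Ifitm3, Isg15, Irf7, Oasl2, Bst2, Rtp4 and Ifi27l2a, were followed through scRNA-Seq of sorted spinal microglia. They were chosen by symbol and are 9 of the 32285 genes counted. All 9 had at least 1 UMI (unique molecular identifier, the tag that marks 1 captured RNA molecule) in the control library, and 8 did in the 4E-BP1–cKO library. They were sparse. At least 1 of them was detected in 295 of 1147 control cells and 131 of 445 4E-BP1–cKO cells, and at least 3 at once in 19 and 9 cells.

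The pathway runs from ligand to effector. Viral or misplaced nucleic acid is sensed by receptors such as RIG-I, cGAS and the Toll-like receptors, which leads to secretion of interferon-β and interferon-α. These bind IFNAR1 and IFNAR2, and signaling through the kinases JAK1 and TYK2 leads to a complex with IRF9 that binds the interferon-stimulated response element in the promoters of target genes. Microglia with a raised interferon program have been described in development, aging and disease, and resting microglia carry a low tonic level of it.

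Cells were sorted from the spinal cords (lumbar, per the labels) of male mice aged 8 to 10 weeks by the gate CD45loCD11BhiCX3CR1hi, and the 3′ ends of their RNAs were counted in droplets. The control animals are given as Eif4ebp1 fl/fl in a figure legend and as WT in the methods, and the 4E-BP1–cKO animals were Eif4ebp1 fl/fl:TMEM119 CreERT2, in which Cre is driven by the microglial Tmem119 promoter and removes 4E-BP1, a repressor of cap-dependent translation. The methods give 4-OHT, injected i.p. from P4 to P9, for the induction of Cre. There was 1 library per genotype, and the sources used here do not give the number of mice behind each. No test between the genotypes can therefore be made, cells of 1 library are not replicates, and all intervals below are exact 95% intervals for counting error alone (Poisson for UMIs, Clopper-Pearson for shares of cells, conditional Poisson for ratios). For a bulk sum of UMIs, fewer positive cells and fewer molecules per cell cannot be told apart, so both are given.

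The limits on a cell were over 300 genes with a UMI and less than 5% of UMIs on mitochondrial genes, which left 1147 of 1216 control barcodes with 4803562 UMIs and 445 of 474 4E-BP1–cKO barcodes with 1734332 UMIs. The libraries shared 0 barcodes. Median depth was 3053 and 2776 UMIs per cell, and the median share of UMIs on ribosomal protein genes was 2.19% and 3.5%. At least 3 of 10 microglial markers were found in 1086 control and 408 4E-BP1–cKO cells. At least 3 markers of a cell type other than microglia were found in 14 and 3 cells (endothelial cells, oligodendrocytes, erythrocytes, border-associated macrophages, plasmacytoid dendritic cells or T cells). These 17 cells held 28 of 580 and 10 of 251 UMIs of the 9 genes, and values without them are given where they matter.

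The promoters were searched for the core of the response element named above. RefSeq windows of GRCm38.p6, from 250 bases before to 50 after the start site, were at hand for 7 members, and not for Rtp4 or Ifi27l2a. The core GAAA-NN-GAAA, searched on both strands (TTTC-NN-TTTC on the other) with overlapping matches counted, was present in 4 of the 7: Isg15, Bst2, Ifit3 and Ifitm3. It was present in 1079 of all 27025 genes with a window (3.99%), and in 3.71% of the 9002 such genes with at least 20 UMIs here. No match was found in the windows of Ifit2, Irf7 and Oasl2, which says only that these letters are not there. The stretches with matches are printed below on the strand of the gene, with the matched bases in capitals.
Isg15, chr4:156200856-156200915, minus strand: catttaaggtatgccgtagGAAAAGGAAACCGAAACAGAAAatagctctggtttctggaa
Bst2, chr8:71537565-71537624, minus strand: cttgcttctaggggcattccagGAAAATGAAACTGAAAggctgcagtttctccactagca
Ifit3, chr19:34583365-34583424, plus strand: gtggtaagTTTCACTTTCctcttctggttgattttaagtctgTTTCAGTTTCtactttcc
Ifitm3, chr7:141010715-141010744, minus strand: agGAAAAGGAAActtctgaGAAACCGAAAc
The Isg15 stretch holds 3 matches that overlap each other and the Bst2 stretch holds 2. In Ifit3 the 2 matches lie apart and read on the opposite strand, and in Ifitm3 the 2 matches lie within 30 bases after the start site. For Ifit2, Ifit3, Irf7 and Oasl2 the start sites of the windows are not the ends of the gene spans given below. The Ifit3 stretch lies before the start site of its window but inside the span of the gene. The members with a match include the most abundant of the 9 (Bst2, Isg15), and 2 of the scarcer ones.

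Bst2, which encodes tetherin, a membrane protein that holds budding virus particles at the cell surface, had the highest level in both libraries. It had 226 UMIs in 174 control cells (15.2%, 13.1 to 17.4%) and 115 UMIs in 79 4E-BP1–cKO cells (17.8%, 14.3 to 21.6%). That is 47.0 CPM (UMIs per 1000000 UMIs of the kept cells; 41.1 to 53.6) in control and 66.3 CPM (54.7 to 79.6) in 4E-BP1–cKO. The intervals of the 2 levels did not overlap, and the ratio of 4E-BP1–cKO over control was 1.41 (1.12 to 1.77). Bst2 lies on chromosome 8 of GRCm38 from 71534255 to 71537472.

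Isg15, a ubiquitin-like protein that is conjugated to other proteins, came next in the control library. It had 136 UMIs in 68 control cells and 37 UMIs in 28 4E-BP1–cKO cells, or 28.3 CPM (23.8 to 33.5) and 21.3 CPM (15 to 29.4). The share of cells with a UMI was nearly alike, at 5.93% (4.63 to 7.46%) and 6.29% (4.22 to 8.97%). The ratio was 0.754 with an interval of 0.509 to 1.09, so a difference in level was not resolved. The control UMIs were unevenly spread, with 22 of 136 in a single cell and 11 in another, whereas no 4E-BP1–cKO cell held more than 3. Isg15 lies on chromosome 4 from 156199424 to 156200818.

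Ifi27l2a, which encodes a small hydrophobic protein strongly induced by type I interferon, had 60 UMIs in 43 control cells and 33 UMIs in 16 4E-BP1–cKO cells. Its level was 12.5 CPM (9.53 to 16.1) and 19 CPM (13.1 to 26.7), a ratio of 1.52 (0.965 to 2.37). A single 4E-BP1–cKO cell held 10 of its 33 UMIs there. Without the cell with the most UMIs in each library the counts were 56 and 23, and the ratio was 1.14 (0.668 to 1.88). The gene lies on chromosome 12 from 103433873 to 103443680.

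Ifitm3, a membrane protein that hinders the fusion of incoming virus with endosomes, had 34 UMIs in 19 control cells and 21 UMIs in 15 4E-BP1–cKO cells. Its level was 7.08 CPM (4.90 to 9.89) and 12.1 CPM (7.50 to 18.5), with a ratio of 1.71 (0.943 to 3.03). Ifitm3 was the member that depended most on cells of other types. Of its control UMIs, 15 lay in the 14 cells with at least 3 markers of another type, 6 of them in a cell with markers of border-associated macrophages and 6 in a cell with endothelial markers. Without the cells of other types it had 19 and 21 UMIs, or 4.05 and 12.2 CPM, a ratio of 3.0 (1.54 to 5.90). This interval excludes 1, whereas that over all cells does not, and the choice to leave the cells out was made after the values were seen. Ifitm3 lies on chromosome 7 from 141009590 to 141010744, and its paralog Ifitm2 may share some reads.

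The tetratricopeptide genes Ifit2 and Ifit3, whose proteins bind foreign RNA and act together, are neighbours on chromosome 19 (34550550 to 34576534 and 34583119 to 34588982). Ifit2 had 37 UMIs in 24 control cells and 11 UMIs in 10 4E-BP1–cKO cells, or 7.70 CPM (5.42 to 10.6) and 6.34 CPM (3.17 to 11.3). The ratio of 0.823 (0.379 to 1.65) did not separate the libraries. Ifit3 had 27 UMIs in 8 control cells and 8 UMIs in 7 4E-BP1–cKO cells, or 5.62 and 4.61 CPM, a ratio of 0.821 (0.322 to 1.86). In the control library 20 of the 27 Ifit3 UMIs came from 1 cell. Without the top cell of each library 7 and 6 UMIs remained, and the ratio was 2.37 (0.659 to 8.25), so the direction for Ifit3 rested on that cell. Ifit3b is a near-identical copy of Ifit3, so the counts of the 2 genes are uncertain where reads match both.

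Irf7, the transcription factor that amplifies interferon-α production, had 22 UMIs in 21 control cells and 11 UMIs in 9 4E-BP1–cKO cells, or 4.58 and 6.34 CPM, with a ratio of 1.38 (0.606 to 2.98). Rtp4, a receptor transporter protein that is induced by interferon, had 24 UMIs in 20 cells and 15 UMIs in 12 cells, or 5.0 and 8.65 CPM, with a ratio of 1.73 (0.844 to 3.44). Neither ratio was resolved from 1. Oasl2, a relative of the 2′-5′ oligoadenylate synthetases, had 14 UMIs in 13 control cells and 0 UMIs in the 4E-BP1–cKO cells. With 3 UMIs taken as the limit that a count of 0 allows, or 1.73 CPM, the control level of 2.91 CPM (1.59 to 4.89) was 1.68 times that limit, and its interval reached below the limit. The interval of the ratio of 4E-BP1–cKO over control ended at 0.835. A count of 0 in 445 cells says that Oasl2 was not detectable at this depth. Irf7 lies on chromosome 7 from 141263183 to 141266499, Oasl2 on chromosome 5 from 114896926 to 114912245 and Rtp4 on chromosome 16 from 23520219 to 23614222.

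**Figure D1:**
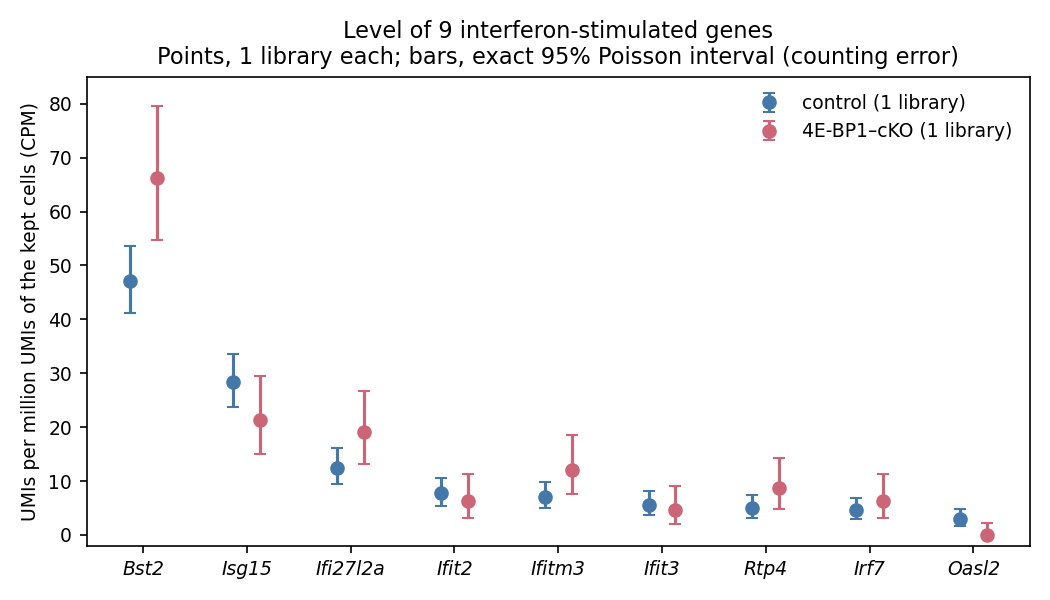
Level of each gene in UMIs per 1000000 UMIs of the kept cells (y axis), with 1 point per library and exact 95% Poisson intervals. Bst2 stands highest, at 47.0 CPM in control and 66.3 CPM in 4E-BP1–cKO, and is the only gene whose 2 intervals do not overlap.

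In order of control CPM, counted at the 3′ end and so not scaled by transcript length, the members were Bst2, Isg15, Ifi27l2a, Ifit2, Ifitm3, Ifit3, Rtp4, Irf7 and Oasl2. The intervals of Bst2, Isg15 and Ifi27l2a did not overlap each other. From Ifi27l2a to Oasl2, each overlapped the next. In the 4E-BP1–cKO library the interval of Isg15 overlapped that of Ifi27l2a, and Ifitm3 and Rtp4 stood above Ifit2 with overlapping intervals. The order of neighbours from Ifi27l2a down was thus not resolved in control, nor that from Isg15 down in 4E-BP1–cKO.

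Over all 9 genes there were 580 UMIs in control and 251 in 4E-BP1–cKO, or 121 and 145 CPM, a ratio of 1.20 (1.03 to 1.39) and 0.26 on the log2 scale. Bst2 carried most of this difference. Without it, the other 8 genes had 354 and 136 UMIs, and the ratio was 1.06 (0.867 to 1.30). Of the 8 members with at least 20 UMIs over both libraries, 3 were over 1.5-fold higher in 4E-BP1–cKO and 0 were over 1.5-fold lower. The 3 were Ifitm3, Rtp4 and Ifi27l2a, on 55, 39 and 93 UMIs, and their intervals all included 1. Of the 11784 genes with at least 20 UMIs, 5.34% were over 1.5-fold higher and 13.5% over 1.5-fold lower. These shares fell with more counts, to 2.1% and 5.62% of the genes with at least 100 UMIs. The shares among genes as sparse as the 3 members were not counted. The interval of the ratio excluded 1 for Bst2 alone among the 8 members, and for 20.7% of the 11784 genes. The median log2 ratio of the 8 members was 0.44, and that of the 11784 genes was -0.05. For Oasl2, at 14 UMIs and so outside these counts, the interval also excluded 1. Without the cells of other types, Ifitm3 alone remained over 1.5-fold, with Rtp4 at 1.47 (0.688 to 3.0) and Ifi27l2a at 1.33 (0.825 to 2.11).

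Apart from Bst2 and Isg15, the members were detected in no more than 3.75% of the cells of either library. Genes of other cell types were found at shares that ran from above to below these. A single marker of each type is given, and the other markers are not. Mbp, a myelin gene, was detected in 10.2 and 14.8% of control and 4E-BP1–cKO cells, Flt1 of endothelium in 2.01 and 1.12%, Aqp4 of astrocytes in 1.83 and 1.57%, and Snap25 of neurons in 0.349 and 0.225%. Csf1r, which microglia express, was detected in 90.1 and 87.0%. The data hold no cell type that should lack interferon-stimulated genes, so the part of free RNA in these shares was not tested, and shares in the range of the genes above are not read as expression by a given cell.

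The number of members per cell was then counted. In the control library 852 cells had 0 members, 222 had 1, 54 had 2, 17 had 3, 1 had 4 and 1 had 5. In the 4E-BP1–cKO library the counts were 314, 96, 26, 8, 1 and 0. The share with at least 3 members was thus 1.66% in control (1.0 to 2.57%) and 2.02% in 4E-BP1–cKO (0.929 to 3.8%). The latter minus the former was 0.366 percentage points (-1.06 to 2.26). The intervals overlapped, and no difference between the libraries in these cells was detectable. They held 107 of the 580 member UMIs in control (18.4%) and 52 of the 251 in 4E-BP1–cKO (20.7%). Most member UMIs therefore lay in cells with 1 or 2 of the genes.

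Depth went with these counts. Cells with 0 members had a median of 2559.5 UMIs in control and 2175.5 in 4E-BP1–cKO, whereas those with at least 3 had medians of 9161 and 8563. Of the cells with at least 3 members, 17 of 19 and 7 of 9 lay above the median depth of all kept cells, 2976 UMIs. By quartiles of depth, from the shallowest, at least 3 members were detected in 0.386, 0.333, 0.658 and 5.28% of the control cells and in 0.719, 1.01, 1.08 and 5.26% of the 4E-BP1–cKO cells. In the deepest quartile the 2 libraries gave nearly the same share. The level in CPM did not follow this order, at 113, 61.5, 105 and 145 CPM in control and 227, 92.1, 124 and 154 CPM in 4E-BP1–cKO. In the shallowest quartile the 4E-BP1–cKO level was highest, on 30 UMIs in 139 cells (153 to 324 CPM), against 32 UMIs in 259 control cells (77.5 to 160 CPM). After each cell was thinned to 872 UMIs, 0 of 1058 control cells and 0 of 375 4E-BP1–cKO cells had at least 3 members, which allows shares of up to 0.348% and 0.979%.

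**Figure D2:**
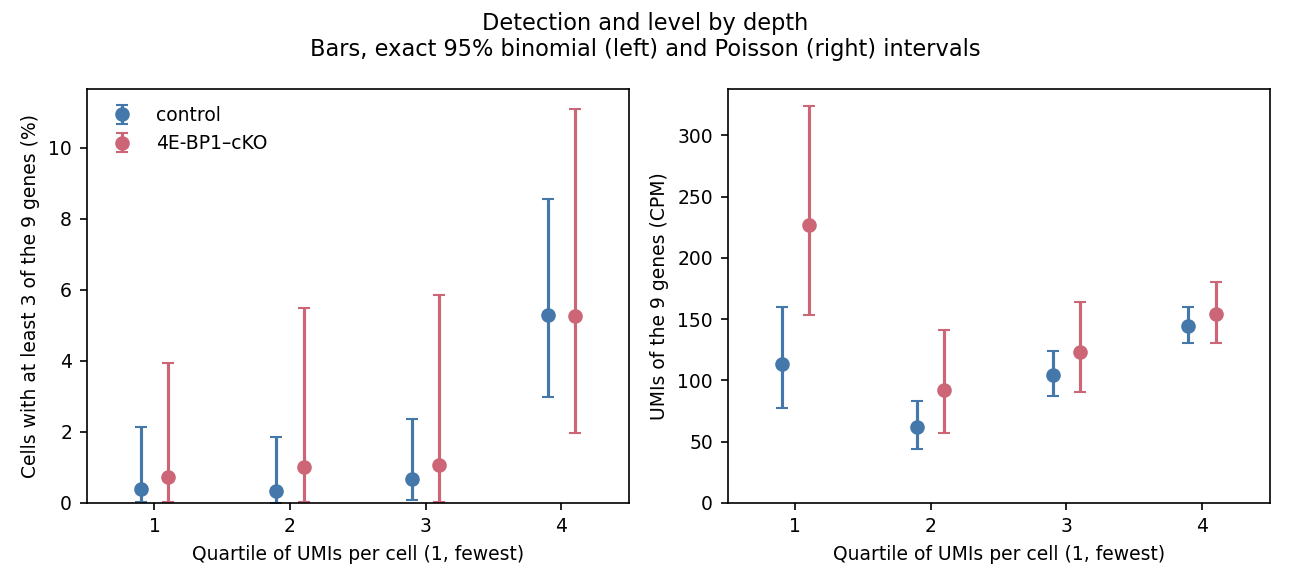
Share of cells with at least 3 of the 9 genes (left, %) and summed level of the 9 genes (right, CPM) by quartile of UMIs per cell, with exact 95% binomial and Poisson intervals. The share is 5.28% and 5.26% in the deepest quartile and at most 1.08% in the others, whereas the level is highest in the shallowest quartile for 4E-BP1–cKO (227 CPM).

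The cells with at least 3 members did not share a fixed set of genes. The 19 control cells showed 16 different combinations and the 9 4E-BP1–cKO cells showed 9. The most frequent was Isg15 with Bst2 and Ifi27l2a, in 3 control cells. Bst2 was in 15 of the 19 control cells and Isg15 in 10, and 17 had at least 1 of the 2 (8 of 9 in 4E-BP1–cKO). Most genes were present at 1 or 2 UMIs. The exceptions in control were a cell with 20 UMIs of Ifit3, 4 of Isg15 and 3 of Ifitm3, 2 cells with 4 UMIs of Bst2, and a cell with 6 UMIs of Ifitm3. In 4E-BP1–cKO they were 2 cells with 3 UMIs of Bst2 each, of which one had 4 and the other 10 UMIs of Ifi27l2a. Scrublet called 0 of the 19 and 1 of the 9 cells doublets.

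**Figure D3:**
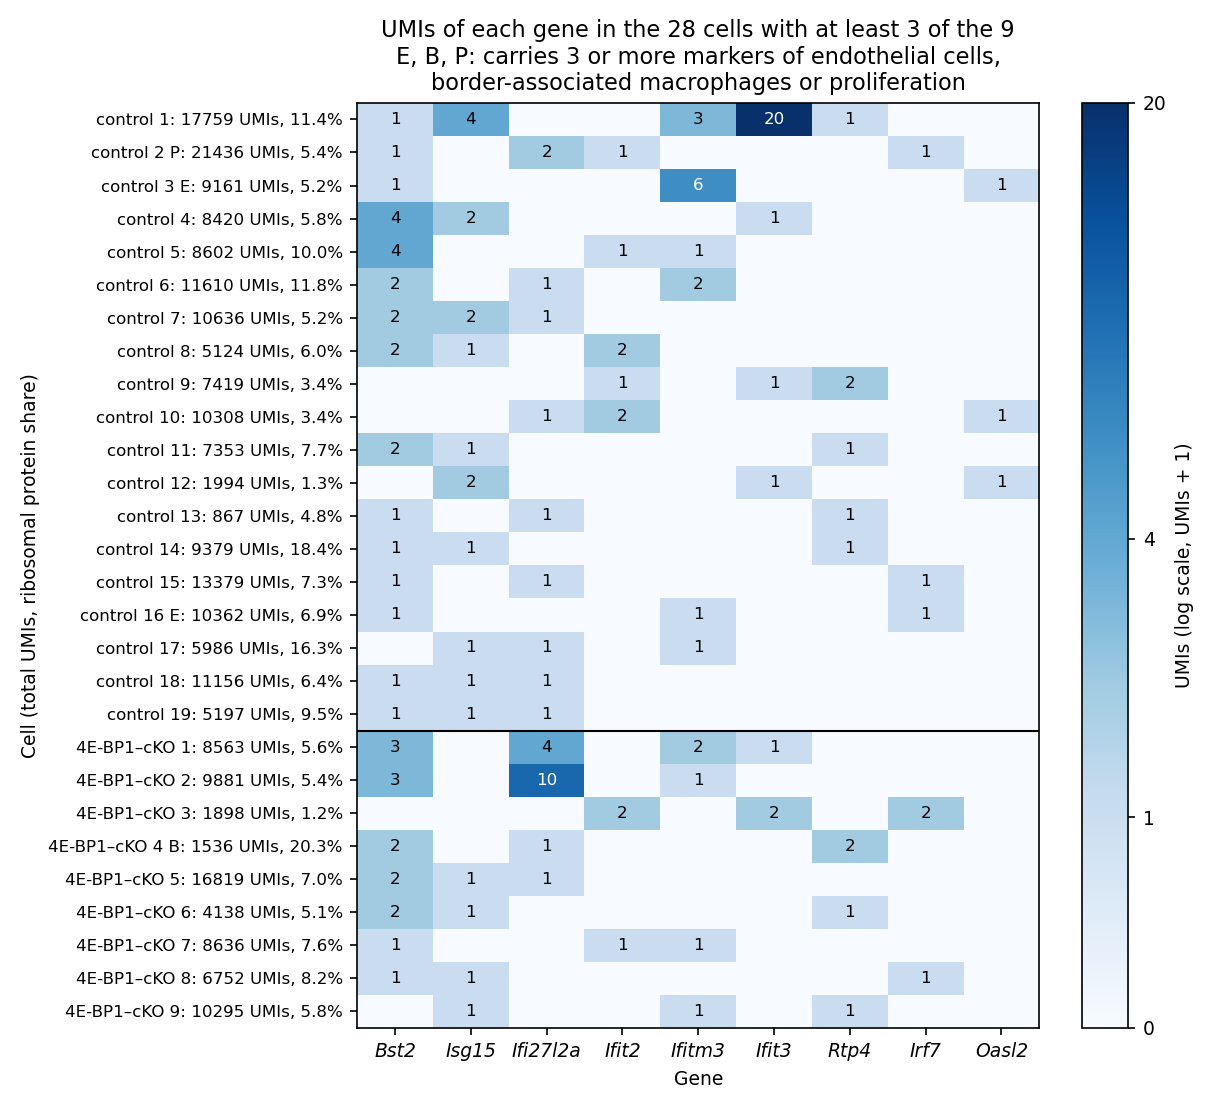
UMIs of each of the 9 genes (columns) in each of the 28 cells with at least 3 of them (rows, control above the line and 4E-BP1–cKO below it), with the total UMIs and ribosomal protein share of the cell. Counts of 1 and 2 prevail, and the largest are 20 UMIs of Ifit3 in control cell 1 and 10 UMIs of Ifi27l2a in 4E-BP1–cKO cell 2.

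The control cell with the most member UMIs is described on its own. It had 29 member UMIs, or 16.3 per 10000 of its UMIs, a rate that 2 shallower control cells with at least 3 members exceeded (20.1 and 34.6, on 4 and 3 member UMIs). It had 5 members (Ifit3 with 20 UMIs, Isg15 with 4, Ifitm3 with 3, and Bst2 and Rtp4 with 1 each) and all 10 microglial markers, and was not called a doublet. With 17759 UMIs and 4338 genes it was 8th in depth among the control cells, and 11.4% of its UMIs were on ribosomal protein genes. Of the 88 pathway genes with at least 20 UMIs in the control library, 60 had a higher rate in this cell than in the other control cells and 28 a lower one, 19 of them with 0 UMIs, and the interval of the ratio lay above 1 for 25 and below 1 for 0. The same counts were not made over all genes, so they are not read as particular to the pathway. The 2 directions were also not equally open. A sparse gene with 1 UMI in the cell had a ratio above 1 (Xaf1, 6.57). A low count there rarely put the interval below 1. Ifit2, with 0 UMIs in the cell, gave 0 to 28.3. Ifnar2, with 1 UMI there and 1151 in the other cells, gave 0.00592 to 1.31. The genes named next were chosen after their values were seen, for their high values. The cell held 4 of the 5 Ifit1 UMIs and 2 of the 2 Ifit3b UMIs of the control library. It also held 16 of the 87 Ccl7 UMIs (18.4%), 33 UMIs of Ccl12 and 27 of Ccl2, the genes of monocyte-attracting chemokines. Per 10000 UMIs, Ccl7 stood at 9.01 in this cell, 60.7-fold higher than in the other control cells (32.9 to 106). Ccl12 was 13.3-fold higher (9.06 to 18.8) and Ccl2 5.62-fold higher (3.69 to 8.21). Gbp7, a guanylate-binding protein, was 12-fold higher (4.32 to 26.8) on 6 UMIs, and Rnf213, an interferon-induced ubiquitin ligase, was 8.14-fold higher (3.69 to 15.7) on 9 UMIs. This is 1 cell, chosen for its member count, and it was described with no test.

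High counts of a single member did not bring the others along in every case. The control cell with 22 UMIs of Isg15, out of 13251 UMIs, had none of the other 8 genes. The cell with 11 UMIs of Isg15 had 3 UMIs of Bst2 and no other member. The cell with 7 UMIs of Ifit2, out of 5360, had 2 of Bst2 only. In 4E-BP1–cKO, a cell of only 1898 UMIs held 2 each of Ifit2, Ifit3 and Irf7, which is 10.5 UMIs of each per 10000, and none of Bst2 or Isg15. It had the lowest ribosomal protein share of the 9 cells there, at 1.16%.

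Among cells above the median depth, the share of cells with a second member was compared between cells with and without a given member. In control it was higher in 54 of 72 ordered pairs of genes, with intervals apart in 5 and in the opposite direction in 0 of those apart. The 5 came from 3 gene pairs. Ifi27l2a was found in 13.3% of the cells with Bst2 (8.42 to 19.6%) and 3.72% of those without (2.14 to 5.97%), Bst2 in 56.3% of the cells with Ifitm3 (29.9 to 80.2%) and 26% of those without (22.5 to 29.9%), and Rtp4 in 3 of 6 cells with Ifit3 and 10 of 582 without. Cells with Bst2 were also deeper, at a median of 7811.5 against 4770 UMIs, so depth moved with these shares and its part was not tested. The limits of the Bst2 share with and without Ifitm3 were only just apart, at 29.88 and 29.85%. Cells with endothelial markers were among those with both genes, and the pairs were not counted without the cells of other types. In 4E-BP1–cKO the share was higher in 34 of 64 ordered pairs, with intervals apart in 0. Pairs with Oasl2 as the second member, at 0 UMIs in that library, could not be higher, so the counts of the libraries are not alike. Pairs of the other members enter in both orders, which give the same direction. Pairs of genes outside the members were not counted, so no background is given. For sparse members, intervals apart in the opposite direction were hardly possible. In control, Irf7 was in 0 of 54 cells with Isg15 (0 to 6.60%) and 2.81% of those without (1.58 to 4.59%). The counts of intervals apart in each direction are therefore not compared.

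The ribosomal protein share of UMIs was larger in the cells with several members. Its median was 1.68% in the control cells with 0 members and 6.42% in those with at least 3. In 4E-BP1–cKO it was 2.14% and 5.80%. Over 3% was reached by 18 of 19 and 8 of 9 of the cells with at least 3. In the range of depth given next it was reached by 15 of 15 (78.2 to 100%) and 6 of 7 (42.1 to 99.6%) of them. Of the cells with 0 members in that range, 130 of 185 (70.3%, 63.1 to 76.8%) and 90 of 183 (49.2%, 41.7 to 56.7%) also reached it. The intervals overlapped in 4E-BP1–cKO. Mitochondrial shares differed less, at medians of 0.916 and 0.994% in control and 0.737 and 1.01% in 4E-BP1–cKO. Because deep cells also had larger ribosomal shares, cells were compared within the same range of depth (the middle 80% of the cells with at least 3 members). From 4498 to 14255 UMIs in control, the median share was 4.67% (4.08 to 5.33%) in 185 cells with 0 members and 6.88% (5.22 to 10.0%) in 15 cells with at least 3. From 1826 to 11600 UMIs in 4E-BP1–cKO it was 2.95% (1.88 to 4.48%) in 183 cells and 5.62% (1.16 to 8.16%) in 7 cells. The intervals of these medians overlapped in both libraries, and depth still differed within the range, at a median of 6546 against 9161 UMIs in control and 3284 against 8563 UMIs in 4E-BP1–cKO. Cells with 2 members had medians of 8.51% (6.20 to 10.1%) in control, where the interval lay above that of cells with 0 members, and 8.19% (3.96 to 13.9%) in 4E-BP1–cKO.

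**Figure D4:**
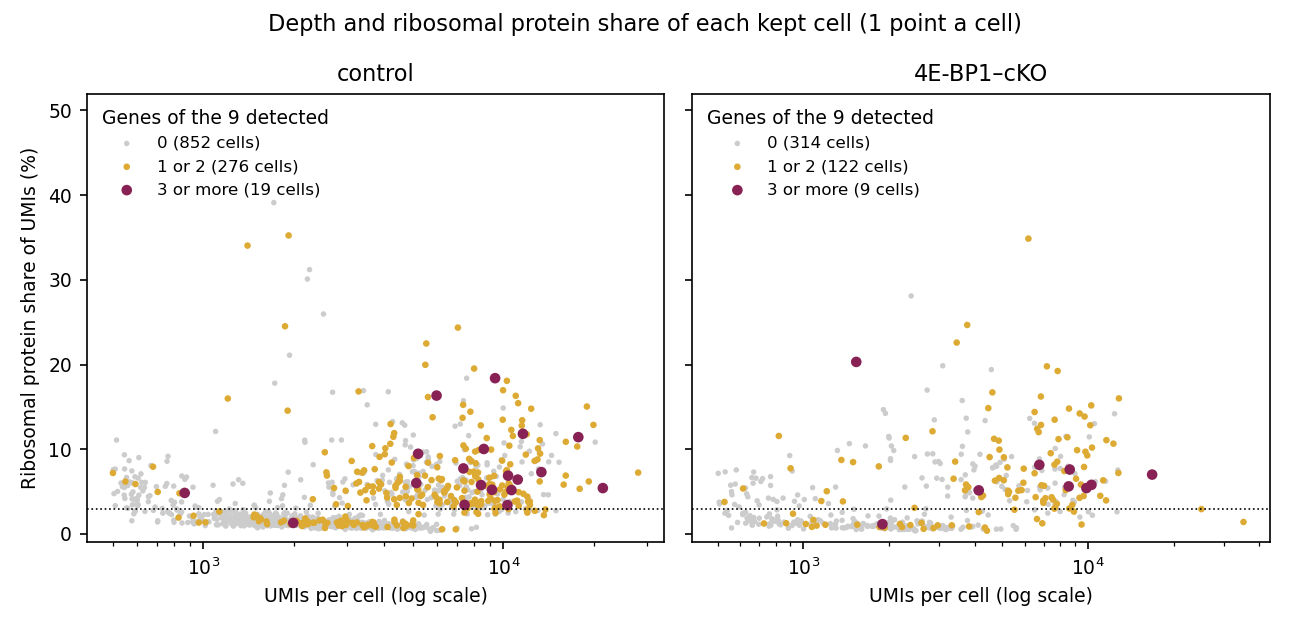
UMIs per cell (x axis, log scale) and ribosomal protein share (y axis, %) of each kept cell, coloured by the number of the 9 genes detected; the dotted line marks 3%. Of the cells with 3 or more, 18 of 19 control and 8 of 9 4E-BP1–cKO cells lie above the line.

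Levels, unlike shares of cells, allow the ribosomal ranges to be compared in UMIs. Over all cells, the 9 genes together stood at 58.0 CPM (47.6 to 70.0) in control cells under 3% ribosomal protein UMIs, 146 CPM (129 to 164) from 3 to 8%, and 188 CPM (163 to 217) over 8%. In 4E-BP1–cKO the levels were 84.8 CPM (62.5 to 112), 162 CPM (133 to 194) and 192 CPM (155 to 236). Near the 3% limit, from 2.5 to 3.5%, lay 83 control and 27 4E-BP1–cKO cells. Among cells above the median depth, those with at least 3% over those under 3% gave a ratio of 3.01 (2.29 to 4.03) in control and 2.59 (1.63 to 4.34) in 4E-BP1–cKO. Over all genes with at least 20 UMIs the median of the same ratio was 0.936 and 0.959, and 22.2 and 26.5% of the genes were over 1.5-fold higher in the cells with the larger share.

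**Figure D5:**
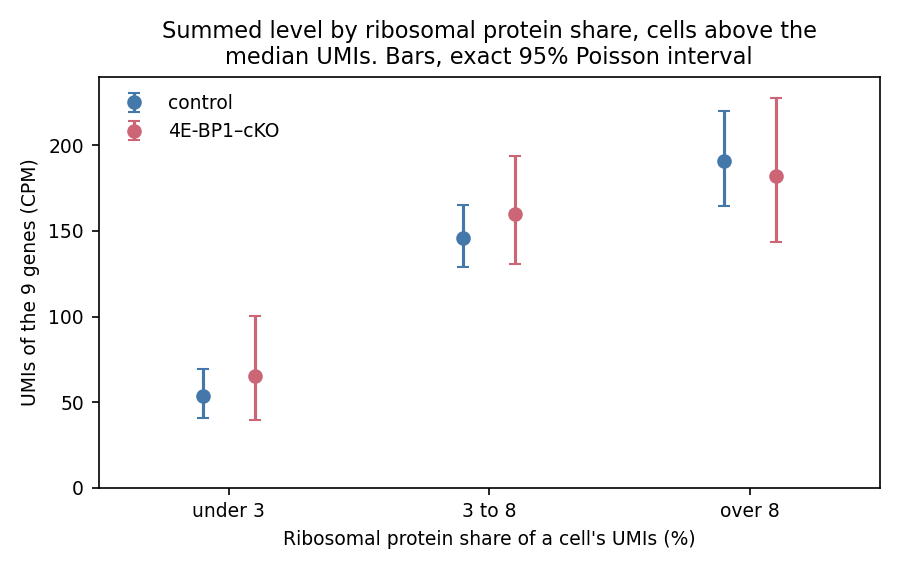
Summed level of the 9 genes (y axis, CPM) by ribosomal protein share (x axis, %) in cells above the median depth, with exact 95% Poisson intervals. In both libraries the level under 3% (53.9 CPM in control, 65.1 CPM in 4E-BP1–cKO) lies below the levels from 3 to 8% and over 8%.

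The members took unequal parts in this. In control cells above the median depth, Bst2 stood at 70.6 CPM in those with at least 3% and 13.9 CPM in those under it, a ratio of 5.07 (3.0 to 9.23). Ifi27l2a gave 3.74 (1.5 to 12), Isg15 gave 2.51 (1.47 to 4.56), and Ifitm3 gave 29 against 2 UMIs, or 5.65 (1.43 to 48.9). Without the cells of other types Ifitm3 had 14 against 2 UMIs, a ratio of 2.84 (0.652 to 25.7) whose interval includes 1, whereas Bst2 gave 5.11 (3.02 to 9.32) and the 9 genes together 2.95 (2.24 to 3.95). Ifit3 gave 23 against 2 UMIs, of which 20 were in 1 cell. For Irf7, Rtp4 and Oasl2 the intervals included 1. Ifit2 went the other way, with 16 against 10 UMIs and a ratio of 0.624 (0.266 to 1.54), an interval that lies below the lower end for Bst2. In 4E-BP1–cKO, Bst2 gave 2.09 (1.14 to 4.19) and Ifi27l2a 4.03 (1.02 to 34.9), Isg15 gave 3.74 (0.937 to 32.5) and Ifit2 again the lowest value, 0.576 (0.0825 to 6.36), on 4 against 2 UMIs. Ifitm3 had 16 UMIs in the cells with at least 3% and 0 in those under it. With 3 UMIs as the limit of a count of 0, its level in the former was 1.54 times that limit. The lower end of the ratio's interval, which also covers the counting error of the 16 UMIs, was 1.11. Without the cells of other types, Ifi27l2a in 4E-BP1–cKO gave 3.61 (0.900 to 31.5), an interval that includes 1, and the 9 genes together gave 2.53 (1.59 to 4.24).

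The upstream part of the pathway was measured in the same cells. Of the listed genes, 125 were matched (Mx1, Mx2 and Cxcl11 were not) and 90 had at least 20 UMIs over both libraries. Of the interferons themselves, 9 of 10 had 0 UMIs in either library, Ifng and 4 interferon-α genes among them. Ifnb1, the gene of interferon-β, had 6 UMIs in 2 control cells and 1 UMI in 1 4E-BP1–cKO cell, none of them a cell with at least 3 members. Of the 90 genes, 6 were over 1.5-fold higher in 4E-BP1–cKO and 5 over 1.5-fold lower, and the median log2 ratio was 0.07, where 5.34% of all genes were as much higher and 13.5% as much lower.

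Receptors and kinases with at least 20 UMIs ran from Tyk2, at 23.7 CPM in control and 18.5 CPM in 4E-BP1–cKO, to Jak1. Ifnar1 stood at 46.0 and 46.1 CPM. Tyk2 and Ifnar1 were named after their values were seen. Jak1 stood at 884 CPM in control and 932 CPM in 4E-BP1–cKO, a ratio of 1.05 (0.995 to 1.12). The subunits of the interferon-γ receptor were slightly higher in 4E-BP1–cKO, Ifngr1 with a ratio of 1.15 (1.04 to 1.27) and Ifngr2 with 1.14 (1.02 to 1.28), whereas Ifnar2, of the type I receptor, gave 0.952 (0.847 to 1.07). Of the 8 receptor and kinase genes with at least 20 UMIs, 0 passed 1.5-fold. The transcription factors were likewise within 1.5-fold. Irf8, which specifies microglia, stood at 363 and 355 CPM. Irf2, a repressor of these promoters, gave 0.859 (0.769 to 0.957), Irf1, an activator, gave 1.14 (1.02 to 1.27) and Irf5 gave 1.29 (1.15 to 1.46).

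Among 15 nucleic acid sensors and adaptors, 1 passed 1.5-fold, Dhx58 with 15 and 9 UMIs and a ratio of 1.66 (0.641 to 4.05), named after its value was seen. Tlr7, the endosomal receptor for single-stranded RNA, gave 0.849 (0.743 to 0.967). Tmem173, which encodes STING, gave 1.12 (0.955 to 1.30), the kinase Tbk1 gave 1.11 (0.942 to 1.30), and Cgas gave 1.24 (1.0 to 1.53). Of the 7 negative regulators, Socs3, an inhibitor of JAK kinases, stood at 355 and 557 CPM, 1.57-fold higher (1.45 to 1.70) in 4E-BP1–cKO, and Pias1 gave 0.820 (0.727 to 0.922). The phosphatase genes Ptpn1 and Ptpn6 gave 1.05 (0.965 to 1.14) and 1.25 (1.05 to 1.47).

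Of 44 other interferon-stimulated genes with at least 20 UMIs, 3 were over 1.5-fold higher in 4E-BP1–cKO and 5 over 1.5-fold lower, with a median log2 ratio of 0.06. Both counts are close to the shares over all genes, 5.34% and 13.5%. Ly6e, the most abundant, stood at 300 CPM in control and 280 CPM in 4E-BP1–cKO, a ratio of 0.933 (0.840 to 1.03), and Lgals9 gave 0.998 (0.858 to 1.16). Psme1, of the proteasome activator, and Slfn2 gave 1.36 (1.16 to 1.60) and 1.40 (1.17 to 1.66). The 3 higher genes were Ifi204, a DNA-binding protein, with 1.76 (1.29 to 2.40), Gbp3 with 1.90 (1.08 to 3.28) and Ms4a4c with 1.92 (0.723 to 4.85). The 5 lower genes were Usp18, which removes ISG15 from proteins and dampens interferon signaling, with 0.297 (0.0577 to 0.961) on 28 and 3 UMIs, Irgm1 with 0.469 (0.223 to 0.895), Nlrc5, an activator of class I genes, with 0.635 (0.437 to 0.904), Slfn9 with 0.482 (0.121 to 1.41) and Ly6a with 0.478 (0.144 to 1.25). These 8 genes were named for having passed the fold, after their values were seen.

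Of the interferon-inducible chemokines, Ccl2 stood at 275 and 430 CPM, 1.56-fold higher in 4E-BP1–cKO (1.43 to 1.71), Ccl12 gave 1.46 (1.28 to 1.66) and Cxcl10 gave 1.21 (1.05 to 1.38). Class I antigen presentation genes differed less, with B2m at 929 and 978 CPM, 1.05-fold (0.994 to 1.11), H2-D1 at 1.21 (1.12 to 1.32), H2-K1 at 1.16 (1.06 to 1.26) and H2-T23 at 1.25 (1.04 to 1.5). Chemokine and early response genes outside the pathway list were compared as well. Of 9 NF-κB chemokine and cytokine genes, 4 were over 1.5-fold higher in 4E-BP1–cKO and 0 lower, with a median log2 ratio of 0.56. Of 14 immediate early genes, 3 were over 1.5-fold higher and 0 lower, with a median of 0.33. Below 1 among the latter were Klf4 at 0.839 (0.787 to 0.895) and Dusp1 at 0.954 (0.887 to 1.03). Over all genes 5.34% were as much higher and 13.5% as much lower. The intervals cover counting error between 2 libraries and not differences between mice.

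The same genes were then read within each library, in the cells with at least 3 members against all other cells. In control, 22 of 88 pathway genes with at least 20 UMIs were over 2-fold higher in the member-rich cells, where 9.85% of all genes were. In 4E-BP1–cKO it was 18 of 77, where 11.1% of all genes were. Over 2-fold lower were 4 pathway genes in control and 10 in 4E-BP1–cKO, where 21.8 and 25.1% of all genes were. The median ratio of the pathway genes was 1.35 and 1.04, where all genes had 0.906 and 0.900. Most of the higher ones were other interferon-stimulated genes, 17 of 43 in control and 13 of 34 in 4E-BP1–cKO. The median ratios of that role were 1.68 and 1.26. Against cells with 0 members in the same range of depth, 13 of 75 (6.83% of all genes) and 15 of 61 (8.11%) pathway genes were over 2-fold higher. Over 2-fold lower were 4 (13.8% of all genes) and 10 (21.9%), with medians of 1.17 and 1.06. Without the cells of other types, 22 of 87 were over 2-fold higher in control (9.31% of all genes) and 17 of 77 in 4E-BP1–cKO (10.9%). The control cell with the most member UMIs is among the member-rich control cells. It held 33 of their 57 Ccl12 UMIs and 16 of their 18 Ccl7 UMIs, against 14 of their 114 Ly6e UMIs. The control counts without that cell were not made.

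Some of these genes are named here with values in both libraries, and others that were counted as well are not. Ly6e stood at 647 CPM in the member-rich control cells and 287 CPM in the others, 2.25-fold (1.84 to 2.73), and at 613 and 267 CPM in 4E-BP1–cKO, 2.30-fold (1.63 to 3.16). It was detected in 18 of 19 and 7 of 9 of these cells. Ifi204 gave 2.92 (1.41 to 5.45) and 4.53 (2.15 to 8.71), and Slfn5, a Schlafen family member, gave 7.22 (3.34 to 14.3) and 8.10 (2.30 to 23.5), on 11 and 5 UMIs. Of the 11 Ifi204 UMIs in the member-rich control cells, 5 were in the cell with the most member UMIs. B2m, the light chain of class I molecules, gave 1.66 (1.46 to 1.88) and 1.70 (1.39 to 2.06). H2-K1 and H2-D1 gave 2.13 (1.61 to 2.78) and 2.37 (1.83 to 3.02) in 4E-BP1–cKO, against 0.836 (0.627 to 1.09) and 0.941 (0.722 to 1.21) in control. The 4E-BP1–cKO values rest on 60 and 72 UMIs, in 8 and 9 of the 9 cells. How many of all genes differ as much between the libraries was not counted. Values without the cell with markers of border-associated macrophages are not given. Ifi204 and Slfn5 were named after their values were seen.

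Other lists were read in the same way. None of 14 immediate early genes and none of 12 microglial identity genes was over 2-fold higher or lower in either library, and of 9 NF-κB chemokine and cytokine genes none was over 2-fold higher and 1 was over 2-fold lower in 4E-BP1–cKO. Median ratios of these lists against all other cells lay between 0.822 and 1.25. Against cells with 0 members in the same range of depth, 1 of the 9 NF-κB genes was over 2-fold higher in control (6.83% of all genes). In 4E-BP1–cKO 1 was over 2-fold lower (21.9% of all genes). No immediate early or identity gene passed 2-fold there, and median ratios lay between 0.787 and 1.15.

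The 12 genes that led the control cells with at least 3 members, by the largest CPM ratio to all other control cells, were Adgrl4, Cldn5, Timp3, Lef1, Plcb1, Hist1h2ab, Itm2a, Nebl, Cxcl12, Slco1c1, Ly6c1 and Flt1, most of which are known from endothelium. Of the 46 Cldn5 UMIs in these cells, 43 were in 1 cell, as were 57 of the 62 Flt1 UMIs and 69 of the 73 Cxcl12 UMIs. Of the 12 genes, 11 had 0 UMIs in the 4E-BP1–cKO cells with at least 3 members, and 0 were in the pathway list. Against 0-member cells in the same range of depth, 10 of the 12 led again.

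These genes came from few cells. Of the 4 control cells with at least 3 of 6 endothelial markers, 2 were among the 19 with at least 3 members, and each of the other 2 had 1 member. One of the former (Ifitm3 with 6 UMIs, Bst2 and Oasl2 with 1 each) had 9161 UMIs and only 2 of 10 microglial markers. The other of these cells had 10362 UMIs and 9 microglial markers, with 1 UMI each of Ifitm3, Irf7 and Bst2. In 4E-BP1–cKO the cell with at least 3 markers of border-associated macrophages was among the 9, with 2 UMIs each of Bst2 and Rtp4 and 1 of Ifi27l2a in 1536 UMIs. Without these, the share of cells with at least 3 members was 1.5% (0.876 to 2.39%) in control and 1.81% (0.785 to 3.54%) in 4E-BP1–cKO, and the median ribosomal share of such cells was 6.42% and 5.71%.

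With the cells of other types left out, 1 of the 12 leading genes, Hist1h2ab, led again. The new list was Hist1h2ab, Racgap1, Ly6a, Tiam2, Cdkn2c, Ifi209, Hist1h2ae, Chst10, Smc2, Nnat, Lyrm4 and Hist1h2ap, in which histone and cell division genes are prominent. These too rested on single cells, with 24 of 25 Hist1h2ab UMIs, 11 of 13 Racgap1 UMIs and 30 of 37 Hist1h2ap UMIs in 1 cell each. The control cell with 4 members carried at least 3 markers of proliferating cells. Among the genes detected in more of the cells, Ifi209, a member of the Ifi200 family, was found in 6 of 17 cells with 7 UMIs, 10.7-fold above the other control cells (3.79 to 26.5), and had 0 UMIs in the 8 4E-BP1–cKO cells. Ly6a was the only gene of the 12 whose interval lay above 1 in both libraries, at 19.3 (4.0 to 81.4) on 4 UMIs in control and 16.5 (1.38 to 144) on 2 UMIs in 4E-BP1–cKO. Of these 12 genes, 10 had 0 UMIs in the 4E-BP1–cKO cells, so the lists were read as descriptions of a few control cells.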

How the data were processed

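The authors aligned 3′ droplet reads to mm10 with Cell Ranger count (8.0.1 in the file header) and deposited UMI counts per gene and barcode, without normalization, for barcodes called as cells. The annotation release, and how reads that match near-identical genes were counted, are not given in the sources used. Cells came from collagenase-digested spinal cords.

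The limits on a barcode were over 300 genes with a UMI and less than 5% of UMIs on mitochondrial genes. The study states fewer cells after its own doublet step. Doublets were kept here, and Scrublet (scanpy 1.11.5) was run as an alternative. It called 4 control and 11 4E-BP1–cKO cells, where 11 and 2 were expected. UMIs were summed over the kept cells and given as CPM, with a pseudocount of 1 CPM for log2 ratios. A count of 0 was taken to allow 3 UMIs, or 0.625 CPM in control and 1.73 CPM in 4E-BP1–cKO. No p-value is given. Other genes were named by role (the 3 with the most UMIs, then any gene with at least 20 UMIs whose interval of the ratio excluded 1, to at most 4 a role), and leading genes were the 12 with the largest ratio among genes that are no member, have at least 20 UMIs in the control library and are detected in at least 10% of the control cells with at least 3 members. Genes outside this rule are marked in the text as chosen after their values were seen. A cell carried the markers of a type where at least 3 had a UMI. The members and lists were chosen with earlier results of these data known.

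Python 3.11.15, numpy 2.4.6, scipy 1.17.1, pandas 2.3.3, R 4.3.3 and edgeR 4.0.16 (TMM factors only) were used. In data simulated for the ratio between the libraries over 11784 genes, the true ratio lay inside its 95% interval for 96.1% of the genes, and 98.5% of 200 changed genes had the right direction. The simulated totals were drawn from the Poisson distribution that the interval assumes, so this checks the computation only. They did not hold the uneven spread of UMIs over cells seen here. Promoter windows and gene positions are from RefSeq, GRCm38.p6. The alternatives were a mitochondrial limit of 10%, more than 500 detected genes, no doublets, TMM factors, CPM over UMIs that are neither ribosomal protein nor mitochondrial, a pseudocount of 10 CPM, no Bst2, other numbers of members, thinning to 872 UMIs, deep cells only, other minimums of UMIs and a shorter motif. Leaving out the top cells or the cells of other types was added after the data were seen.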

Additional observations from a re-analysis of the deposited data

Results flagged for a closer look

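The barcodes that the filter removed were not part of any comparison, and they also held UMIs of the 9 genes. The 69 removed control barcodes had 4 member UMIs, or 36.1 CPM (9.84 to 92.5). The 29 removed 4E-BP1–cKO barcodes had 8 member UMIs, or 225 CPM (97.0 to 443), and 1 of them had at least 3 of the genes. Both counts are above the 3 UMIs that a count of 0 allows.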

How the results depend on the processing

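The summed level was higher in 4E-BP1–cKO under all 10 alternatives, with log2 ratios from 0.09 to 0.64. The interval included no difference under 2 of them, without Bst2 (0.09, -0.21 to 0.38) and in cells above the median depth (0.14, -0.10 to 0.38). The highest, 0.64, came with cells thinned to 872 UMIs and lay outside the interval of the reported value. The direction of Ifit3 turned without its top cells (0.86 on the log2 scale), and Ifit2, Isg15, Ifitm3, Irf7, Bst2, Rtp4, Ifi27l2a and Oasl2 kept theirs in every alternative run. The share of cells with at least 3 members is the result that moved most. It was 0.523% in control and 0.674% in 4E-BP1–cKO without Bst2, with a median ribosomal share of 4.43% in the control cells. With at least 2 members it was 6.36 and 7.87%, with at least 4 members 0.174 and 0.225% (median 19597.5 UMIs in control), and with at least 5 members 0.0872 and 0% (17759 UMIs and 11.4% ribosomal in the 1 control cell). Thinned cells gave 0 and 0%, and cells above the median depth gave 2.89% in control. In these settings the counting rule itself differs (fewer genes, another minimum, fewer UMIs, deeper cells), so the shares of cells are not like for like. The 4.43% without Bst2 rests on 6 control cells (1.30 to 16.3%). The part of Bst2 in the larger ribosomal share of the cells with several members was not tested. The number of members over 1.5-fold higher was 1 without the cells of other types and 0 of 2 with at least 100 UMIs, and 1 was lower with no minimum. Over all genes, 2396 were higher and 6607 lower with no minimum, and 151 and 404 with at least 100 UMIs, against 629 and 1587. Of the leading genes, 1 of 12 remained without the cells of other types. Medians could not be given for thinned cells, or for 4E-BP1–cKO cells with at least 5 members, because there were 0 such cells. No paired analysis was possible because each genotype has 1 library. Depth limits the scarcer members, and no 4E-BP1–cKO cell had a UMI of Oasl2.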
